A study of Mus musculus with 2 samples.

Results

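The genes described here are the members of the cytoplasmic polyadenylation element-binding protein (CPEB) family and their best-known partners in cytoplasmic polyadenylation. They were selected by gene symbol, as a list drawn up with earlier results of these data known. It holds the CPEB genes Cpeb2, Cpeb3 and Cpeb4 and the partners Tent2, Parn, Eif4enif1, Cpsf1, Cpsf2 and Sympk. All 9 genes were found among the 18987 genes of the deposited count table. All 9 also reached a mean of 1 CPM (counts relative to library size, after TMM scaling) over both libraries, the filter on low values, as did 12086 genes in total. The paralog Cpeb1 is not analysed here.

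CPEB proteins bind a U-rich element, the cytoplasmic polyadenylation element (CPE), in the 3′ untranslated region (UTR) of mRNAs. Depending on their state they hold the mRNA in a repressed form with a short poly(A) tail, or they let the tail be lengthened and the mRNA be translated. In models worked out in Xenopus oocytes the repressed complexes hold the deadenylase PARN, the poly(A) polymerase GLD2, the cleavage and polyadenylation specificity factor (CPSF), the scaffold symplekin and the eIF4E-binding protein 4E-T. CPEB4 is known in mouse osteoclast precursors as a factor needed for differentiation. These are changes in tail length and translation as well as in mRNA level, and gene counts report the mRNA level only.

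The Cpeb4 shRNA library came from RAW264.7 cells with an shRNA against Cpeb4, and the other from RAW264.7 cells with a control shRNA. RAW264.7 is a mouse macrophage-like line that forms osteoclast-like cells when given RANKL, the cytokine of osteoclast differentiation. The seeding density was 7500 cells per cm2 in each, RANKL was added after 24 h at 100 ng/ml, and the series title places the collection on day 3. How the shRNAs were delivered, their sequences and whether cells were pooled or cloned are not given by the labels, and with 1 library per group no difference below has a replicate check or a test.

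The Cpeb4 shRNA library held 119350322 counts and the control library 79399680. Osteoclast markers differed between the libraries: all 7 listed (Ctsk, Acp5, Mmp9, Calcr, Dcstamp, Oscar and Itgb3) were at least 2-fold lower. Over all genes past the filter 11.8% were as much lower and 14.6% as much higher. The 7 markers summed to 8639 CPM in the Cpeb4 shRNA library against 45230 CPM in the control library. Of 8 macrophage markers 6 passed the filter, Csf1r, Spi1, Cd68, Ptprc, Itgam and Lyz2, at sums of 3102 and 4836 CPM in the Cpeb4 shRNA and control libraries, most of it Csf1r. Lyz2 went the other way, at 11.4 CPM in the Cpeb4 shRNA library and 5.71 CPM in the control library. Adgre1 and Fcgr1 did not pass the filter, with 101 and 19 counts in the Cpeb4 shRNA library and 12 and 88 in the control library. Of 7 fibroblast and osteoblast, 7 lymphoid and 7 granulocyte and mast cell markers 0 passed. Only 4, 1 and 0 of them were among the deposited genes, which have at least 1 count in both libraries. The rest cannot be judged here. In the Cpeb4 shRNA and control libraries Dcn had 94 and 3 counts, Bglap 5 and 10, Pdgfra 8 and 14, Runx2 16 and 16, and Cd79a 13 and 7. The part of this difference in markers in the values below was not tested. In such bulk RNA fewer cells of a type and less RNA per cell cannot be told apart.

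The 3′ UTRs of the 9 genes were searched because the element that the CPEB proteins read lies in 3′ UTRs. Searched on the transcript strand for TTTTAT and TTTTAAT (U in the RNA, overlapping matches counted), the longest annotated 3′ UTR held a CPE in 6 of the 9 genes. The longest UTRs were those of the CPEB genes and Cpsf2, and for Cpeb2, Cpeb3, Cpeb4, Tent2 and Cpsf2 the CPE nearest the annotated end of the transcript is printed below in 30 bases, with the element in capitals.
Cpeb2: taatttagtttaTTTTATtgttatcttcca
Cpeb3: ggaataaattaaTTTTATgatgctaattct
Cpeb4: gggtaattcattTTTTATtaaagtcatttt
Tent2: ctgttttcctggTTTTATtttcctcatgat
Cpsf2: ctcttccagacaTTTTATaaagaatcatgt

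Cpeb4 itself had 17 CPEs in 4102 bases of 3′ UTR. Of 899 other genes with a 3′ UTR within 20% of that length, 93.9% held at least 1 CPE but 0.556% held 17 or more, and their median was 5. Cpeb2 had 24 CPEs in 3778 bases, and 0 of 1056 genes of similar length had as many. Cpeb3 had 6 in 3569 bases, a number that 35.5% of 1128 genes of similar length reached. The CPE content thus differed within the family, with Cpeb2 and Cpeb4 far above the median of UTRs of their length and Cpeb3 near it.

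Among the partners Cpsf2 had 8 CPEs in 3203 bases and Tent2 had 4 in 1309 bases. Eif4enif1 had 1 in 499 bases. Parn had 0 in 890 bases, and the very short 3′ UTRs of Sympk (100 bases) and Cpsf1 (79 bases) had 0. Over 10468 protein-coding genes past the filter with an annotated 3′ UTR, 62.9% held at least 1 CPE and the median length was 1179 bases. Among UTRs of the lengths of Sympk and Cpsf1 the share was 14.8% and 10.7%.

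The polyadenylation hexamer (AATAAA or ATTAAA) marks the place of cleavage and is the site that CPSF binds. It was found in the last 50 bases for 8 of the 9 genes and for 78.8% of all such UTRs. Of these 8 genes 0 had a CPE within 100 bases before this terminal hexamer. Over all UTRs, those without a terminal hexamer included, 16.0% had this spacing. Counting hexamers anywhere in the UTR, 7 CPEs of Cpeb4 and 7 of Cpeb2 had one within 100 bases downstream, a number reached by 0.667% and 0.568% of genes of similar length. In Cpeb4 the CPE 217 bases from the end ran into an ATTAAA that starts 213 bases from the end, and both are seen in the Cpeb4 sequence above. The Cpeb4 CPE 1864 bases from the end likewise ran into an AATAAA that starts 1860 bases from the end. These CPEs are among the 7 of Cpeb4, each through its overlapping hexamer only. The end of the Cpeb4 and Cpeb2 transcripts is printed here to show the terminal hexamer, in capitals, without a CPE in the same 30 bases.
Cpeb4 end: agatgttgaatgAATAAAacttttaactca
Cpeb2 end: tgttgactgactAATAAActattaagttat

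**Figure D1:**
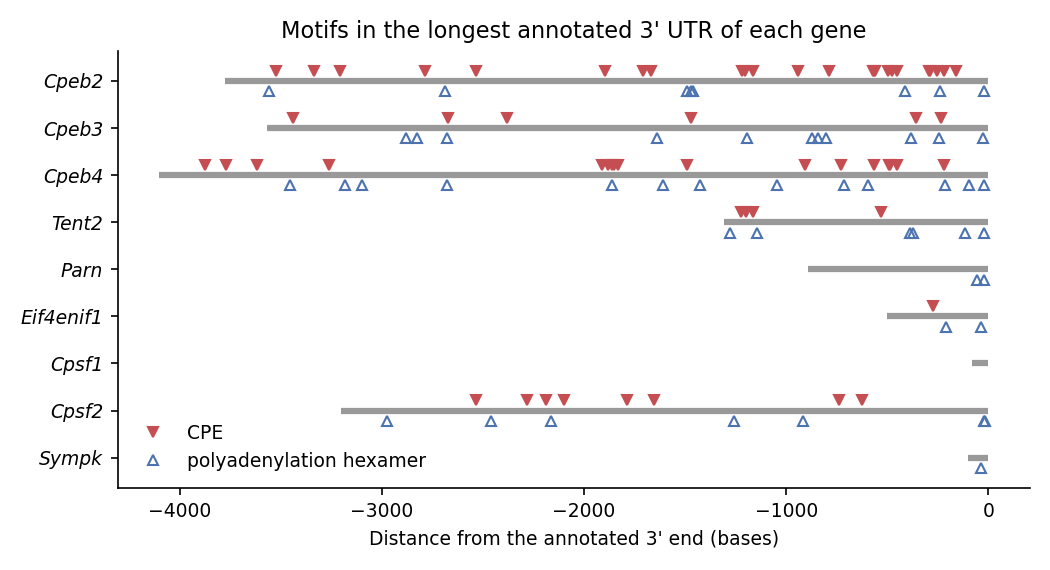
The longest annotated 3′ UTR of each gene, drawn as a grey line by distance in bases from its annotated 3′ end. Filled red triangles above the line are CPEs and open blue triangles below it are polyadenylation hexamers. Cpeb2 carries 24 CPEs and Cpeb4 17, whereas Parn, Cpsf1 and Sympk carry 0.

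The targeted gene was the one member with a large difference. Cpeb4 (ENSMUSG00000020300; GRCm38, chromosome 11, 31872211 to 31935634, plus strand) had 104 CPM in the Cpeb4 shRNA library (13491 counts), against 345 CPM in the control library (25270 counts). The log2 ratio, Cpeb4 shRNA over control, was -1.73, with a 95% counting interval of -1.76 to -1.70, which left 30.2% of the control level. Only 4.76% of the genes past the filter had a lower ratio. Across those genes 26.4% differed at least 2-fold, 11.8% lower and 14.6% higher. Of the 9 genes 1, Cpeb4, was at least 2-fold lower and 0 were at least 2-fold higher, so that the other 8 were within 2-fold.

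Cpeb2 and Cpeb3 encode paralogs of CPEB4 with a closely related RNA-binding region. Cpeb2 (chromosome 5, 43233170 to 43289724, plus strand) had 36.6 CPM in the Cpeb4 shRNA library (4740 counts) and 47.3 CPM in the control library (3467 counts), a log2 ratio of -0.37 (-0.43 to -0.31). Cpeb3 (chromosome 19, 37021291 to 37208601, minus strand), the gene whose intron holds a self-cleaving ribozyme, had 8.81 CPM in the Cpeb4 shRNA library (1140 counts) and 10.2 CPM in the control library (749 counts). Its log2 ratio was -0.22 (-0.35 to -0.08), and 0.018 under total-count scaling. Neither paralog was thus at a higher CPM in the library with less Cpeb4 under TMM scaling, the scaling used unless another is named.

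The coding sequences of Cpeb4 and Cpeb2 were identical at 68.1% of aligned bases, and at 81.5% over the last 250 codons with the stop codon, where the RNA recognition motifs lie. For Cpeb4 and Cpeb3 the identities were 67.8% and 79.4%. The longest run of bases shared by transcripts of Cpeb4 and Cpeb2 was 29, and that of Cpeb4 and Cpeb3 was 20. No stretch of 50 bases was shared (0 of 6416 in Cpeb4), so an exact read of that length could be placed in 1 of these genes only. The labels do not give the read length.

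**Figure D2:**
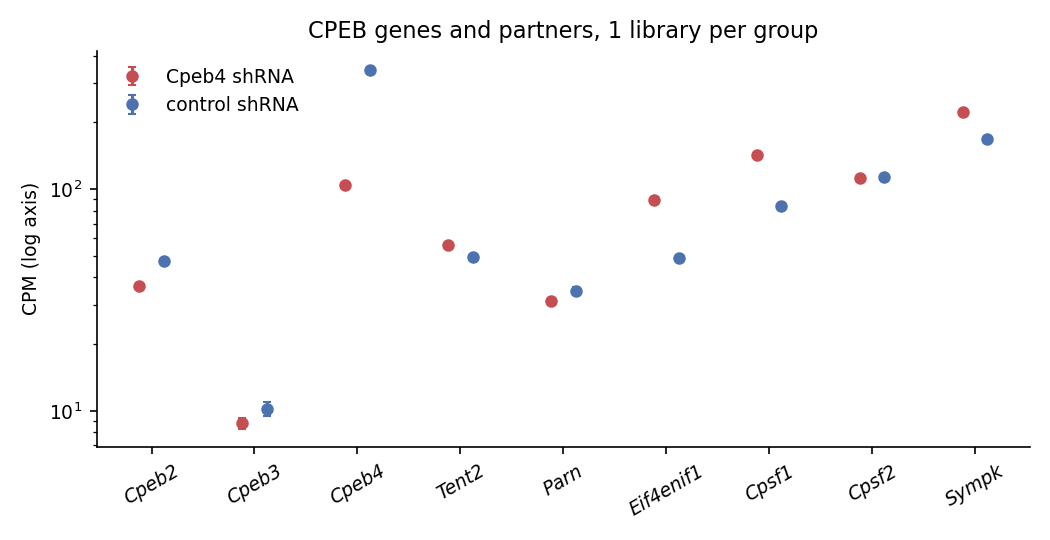
CPM of each of the 9 genes on a log axis, with 1 point for the Cpeb4 shRNA library (red) and 1 for the control shRNA library (blue). Bars are 95% counting intervals, most of them smaller than the points. Cpeb4 lies at 104 CPM in the Cpeb4 shRNA library and at 345 CPM in the control library, the widest gap of the 9.

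The mRNAs of the enzymes that lengthen and shorten the tail differed little between the libraries. Tent2 (Papd4; chromosome 13, 93146282 to 93192385, minus strand), which encodes the cytoplasmic poly(A) polymerase GLD2, had 56.1 CPM in the Cpeb4 shRNA library (7265 counts) and 49.6 CPM in the control library (3631 counts). The log2 ratio was 0.18 (0.12 to 0.24). Parn (chromosome 16, 13537960 to 13668170, minus strand), the poly(A)-specific ribonuclease gene, had 31.3 CPM in the Cpeb4 shRNA library (4051 counts), against 34.8 CPM in the control library (2546 counts), at a log2 ratio of -0.15 (-0.22 to -0.08) that was 0.082 under total-count scaling. The ratio of Tent2 to Parn counts does not depend on the scaling, and it was 1.79 in the Cpeb4 shRNA library against 1.43 in the control library. Tent2 mRNA therefore stood higher relative to Parn mRNA in the Cpeb4 shRNA library, by 0.33 on the log2 scale (0.24 to 0.42). The proteins were not measured.

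The gene for the translational repressor had the highest ratio of the 9. Eif4enif1 (chromosome 11, 3202392 to 3244588, plus strand), which encodes 4E-T, a protein that binds eIF4E and brings repressed mRNAs to cytoplasmic granules, had 89.4 CPM in the Cpeb4 shRNA library (11570 counts). The control library held 48.7 CPM of it (3568 counts). The log2 ratio was 0.88 (0.82 to 0.93), or 1.84-fold, and 82.7% of genes past the filter had a lower one.

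The mRNAs of the CPSF subunits and symplekin, proteins that also serve nuclear 3′ end formation, were unequal in their ratios. Cpsf1 (chromosome 15, 76595803 to 76607591, minus strand), the gene of the largest CPSF subunit, had 143 CPM in the Cpeb4 shRNA library (18552 counts) and 83.7 CPM in the control library (6131 counts). That is a log2 ratio of 0.78 (0.73 to 0.82), or 1.71-fold. Cpsf2 (chromosome 12, 101975988 to 102006424, plus strand), the gene of another CPSF subunit, had 113 CPM in the Cpeb4 shRNA library (14596 counts) and likewise 113 CPM in the control library (8272 counts). Its log2 ratio was -0.0018 (-0.041 to 0.037), an interval that holds 0. Sympk (chromosome 7, 19024377 to 19054618, plus strand), which encodes symplekin, had 223 CPM in the Cpeb4 shRNA library (28889 counts) and 168 CPM in the control library (12282 counts), a log2 ratio of 0.41 (0.38 to 0.44). Cpsf1 counts per Cpsf2 count were 1.27 in the Cpeb4 shRNA library and 0.741 in the control library, a difference of 0.78 on the log2 scale (0.72 to 0.84) that no scaling of the libraries can alter.

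The 6 partners had a median log2 ratio of 0.30, and all 9 genes one of -0.0018, beside 0.051 for all genes past the filter. At a smaller size, 1.5-fold, Eif4enif1 and Cpsf1 were higher and Cpeb4 was lower, beside 48.5% of all genes at that size, 26.4% higher and 22.1% lower. Both partners passed 2-fold under total-count scaling, at log2 ratios of 1.11 for Eif4enif1 and 1.01 for Cpsf1, as did 2510 of 12094 genes past the filter. That scaling raised every ratio by 0.23 and placed Cpeb3, Parn and Cpsf2 above 0, whereas Cpeb4 remained below -1 under all 5 scalings, between -1.83 and -1.49. The -1.83 came from scaling to the median of 20 reference genes, which themselves ran from -1.96 to 1.93 under TMM scaling. The 95% counting intervals of the 9 genes spanned at most 0.27, the width for Cpeb3, and had a median width of 0.11.

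**Figure D3:**
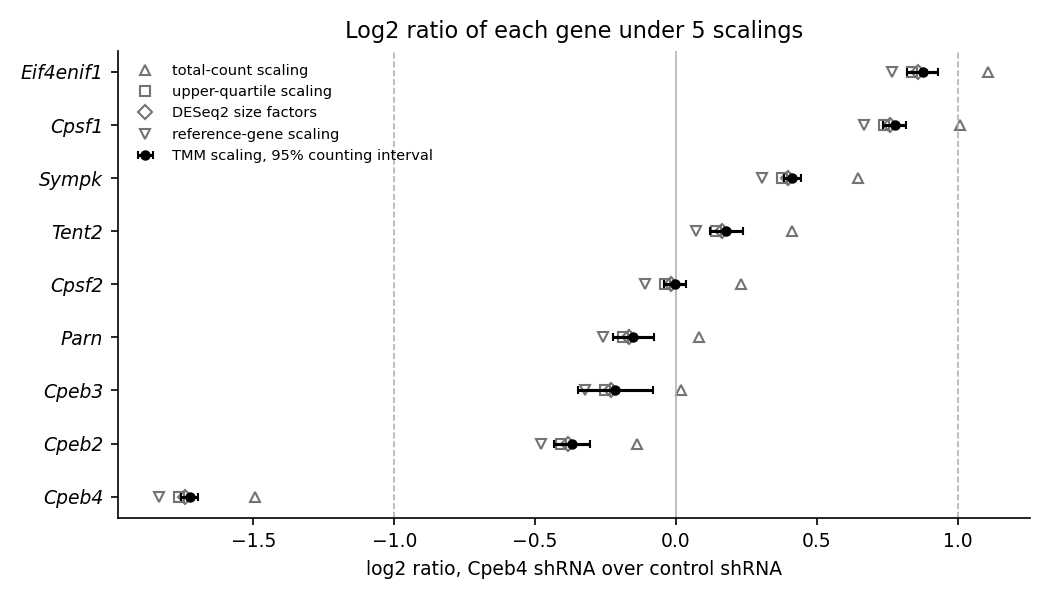
Log2 ratio of Cpeb4 shRNA over control shRNA for each of the 9 genes. Black points with bars are the ratios under TMM scaling with their 95% counting intervals, open grey symbols are 4 other scalings, and dashed lines mark 2-fold. Cpeb4 is beyond the lower dashed line under each scaling, and Eif4enif1 and Cpsf1 pass the upper one under total-count scaling. Over all genes 2510 of 12094 were as much higher under that scaling.

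Levels were compared between genes as CPM per kb of the longest annotated transcript. In the Cpeb4 shRNA library the order was Sympk (46.7 CPM per kb), Cpsf1 (31.7), Eif4enif1 (24.1), Cpsf2 (19.7), Tent2 (18.2), Cpeb4 (16.5), Parn (10.8), Cpeb2 (5.20) and Cpeb3 (1.49). In the control library it was Cpeb4 (54.7 CPM per kb), Sympk (35.1), Cpsf2 (19.7), Cpsf1 (18.5), Tent2 (16.1), Eif4enif1 (13.1), Parn (12.0), Cpeb2 (6.71) and Cpeb3 (1.73). Cpeb4 was thus sixth in the Cpeb4 shRNA library and highest in the control library. Counting intervals of neighbours overlapped in 0 of 8 pairs in either library, but these intervals leave out the variation between cultures and the choice of transcript. The order depended on the length used. With all annotated exons joined, Cpeb4 ranked 4 in the Cpeb4 shRNA library and 1 in the control library. Sympk then had 21.2 CPM per kb in the Cpeb4 shRNA library and ranked below Cpsf1 (25.4), and Eif4enif1 ranked 5 there with 14.0 CPM per kb. In the control library Sympk had 15.9 CPM per kb and ranked 3, below Cpsf2 (19.7).

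Cpeb4 was the most abundant of the 3 CPEB mRNAs in both libraries. It made up 71.2% of their summed CPM per kb in the Cpeb4 shRNA library and 86.6% in the control library. Cpeb2 made up 22.4% and 10.6% in the Cpeb4 shRNA and control libraries, and Cpeb3 6.43% and 2.74%. The sum itself was 23.2 CPM per kb in the Cpeb4 shRNA library and 63.2 CPM per kb in the control library. The larger shares of the paralogs came with a lower Cpeb4 level and not with higher paralog levels, for Cpeb2 and Cpeb3 together had 6.69 CPM per kb in the Cpeb4 shRNA library and 8.45 CPM per kb in the control library.

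**Figure D4:**
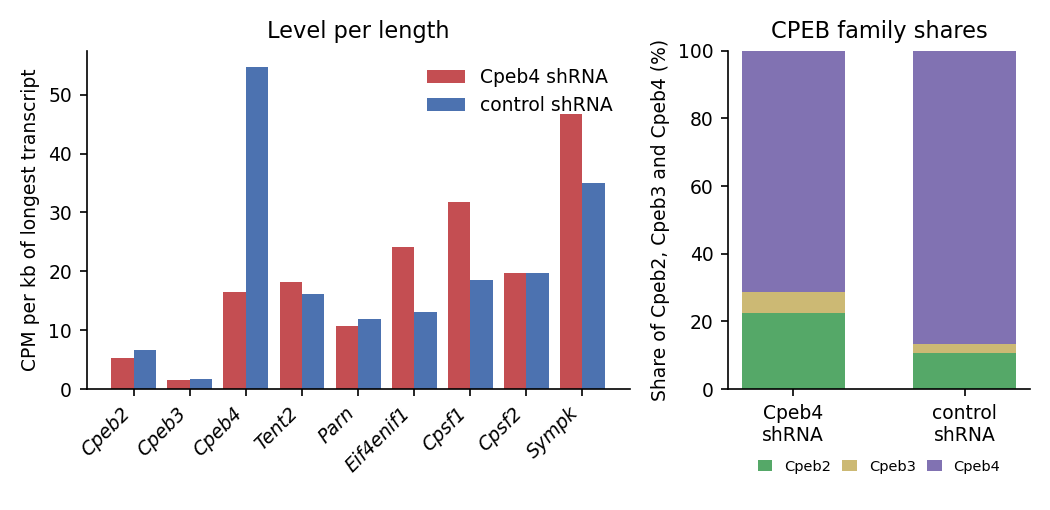
Left, CPM per kb of the longest annotated transcript for each gene in the Cpeb4 shRNA (red) and control shRNA (blue) libraries. Right, the share of each CPEB gene in the summed CPM per kb of the 3 CPEB genes, with Cpeb4 at 71.2% in the Cpeb4 shRNA library and 86.6% in the control library.

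Relative to each partner Cpeb4 was lower in the Cpeb4 shRNA library whatever the scaling. It had 0.467 counts per Sympk count in the Cpeb4 shRNA library against 2.06 in the control library, and 1.86 per Tent2 count against 6.96. The smallest such difference was with Parn, at -1.58 on the log2 scale (-1.65 to -1.50), and the largest with Eif4enif1, at -2.60 (-2.66 to -2.54). Cpeb2 counts per Cpeb4 count were 0.351 in the Cpeb4 shRNA library and 0.137 in the control library.

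The genes most like Cpeb4 in level, by the distance in log2 CPM over the 2 libraries, were Gm2a, Tgoln1 and Hyal1. Gm2a, the GM2 ganglioside activator gene, had 106 CPM in the Cpeb4 shRNA library and 350.2 CPM in the control library. Tgoln1, a trans-Golgi network protein gene, had 100.1 and 348 CPM, and the hyaluronidase gene Hyal1 had 97.2 and 337 CPM, in the Cpeb4 shRNA and control libraries. Their distances to Cpeb4 were 0.036, 0.060 and 0.11. They were picked by these same values, so their closeness was set by the choice, and CPM was not divided by transcript length here.

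In the annotation Cpeb4, Tent2, Parn and Sympk overlap no other gene. Exons of Cpeb2, Cpeb3, Cpsf1 and Cpsf2 share bases with a gene on the opposite strand, at most 2.57% of their exon bases (147 bases between Cpsf2 and Ndufb1-ps). The labels do not say whether strand was used in counting, so those bases could hold reads of either gene.

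Most of the other factors of 3′ end formation had ratios above 0. All 17 listed, among them the remaining CPSF subunits, the cleavage stimulation factor (CstF) and the nuclear poly(A) polymerases, passed the filter. Of these 1 was at least 2-fold higher and 0 were lower, beside 14.6% and 11.8% of all genes. A log2 ratio above 0 was found for 15 (52.5% of all genes), and the median was 0.52. Nudt21, which encodes the small subunit of cleavage factor Im and is known for its part in the choice of poly(A) site, had 84.3 CPM in the Cpeb4 shRNA library and 27.9 CPM in the control library, 3.02-fold higher (log2 ratio 1.59, 1.53 to 1.66). The next was the CstF gene Cstf2 at 0.81. The lowest were Cpsf4, a zinc-finger CPSF subunit gene, at -0.46 and Cstf2t at -0.017.

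Partners of the repressed complex and poly(A)-binding proteins numbered 9 past the filter of 10 listed, with 2 at least 2-fold higher, 0 lower and a median of 0.41. Over all genes 14.6% were as much higher and 11.8% as much lower. Tacc3, the mammalian relative of the Xenopus CPEB partner maskin and a spindle protein gene, had 67.8 CPM in the Cpeb4 shRNA library against 6.94 CPM in the control library (log2 ratio 3.29, 3.16 to 3.42). Pabpc1, the main cytoplasmic poly(A)-binding protein gene, had 2466 and 1223 CPM in the Cpeb4 shRNA and control libraries (log2 ratio 1.01), on the 2-fold line, and has processed pseudogenes that can share its reads. The cap-binding gene Eif4e2 (-0.15) and the helicase gene Ddx6 (-0.079) were lowest.

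Of 10 listed genes of other terminal nucleotidyltransferases 8 passed the filter. Of these 1 was at least 2-fold higher and 2 were lower, beside 14.6% and 11.8% of all genes, and their median was 0.11. The uridylyltransferase gene Tut4 was at 1.79, with 46.1 CPM in the Cpeb4 shRNA library and 13.3 CPM in the control library, and the nuclear poly(A) polymerase gene Tent4a at 0.88. The lowest were Tent5b, at -2.04 from 97 counts in the Cpeb4 shRNA library and 226 in the control library, and Tent5a at -1.04. Tent5b, at 0.750 CPM in the Cpeb4 shRNA library and 3.09 CPM in the control library, passed the filter only through the control library.

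Among kinases and ligases known to act on CPEB proteins, mostly on CPEB1, 7 of 8 listed passed the filter, 3 at least 2-fold higher and 0 lower (14.6% and 11.8% of all genes), and the median was 0.27. The 3 were mitotic kinase genes. Plk1 had 75.5 CPM in the Cpeb4 shRNA library and 3.95 CPM in the control library (log2 ratio 4.26), Cdk1 had 90.3 and 6.95 CPM (3.70), and Aurka was at 2.48. The ubiquitin ligase subunit gene Btrc (-0.68) and Mapk3 (-0.63) were lowest. Tacc3 and the cyclin gene Ccnb1, which are likewise cell-cycle genes, were higher too, and the part of a difference in cycling cells in these values was not tested.

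Genes of other proteins that read 3′ UTRs had a median of -0.22 over 7 past the filter of 9 listed. At least 2-fold lower was 1 of them and 0 were as much higher, beside 11.8% and 14.6% of all genes. Zfp36l1, a binder of AU-rich elements, was at -1.13, and Msi2, a Musashi protein gene, at -0.99 with 81.4 CPM in the Cpeb4 shRNA library and 162 CPM in the control library. The Pumilio gene Pum2 was at 0.37. This median was 0.011 under total-count scaling.

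Of 14 mRNAs reported elsewhere as targets of a CPEB protein, 10 passed the filter, 4 at least 2-fold higher and 2 lower (all genes, 14.6% and 11.8%), and the median was 0.25. The cyclin B gene Ccnb1, a CPEB1 target in oocytes, had 115 CPM in the Cpeb4 shRNA library and 4.82 CPM in the control library (log2 ratio 4.58), and the cytokine signalling inhibitor gene Socs1 was at 3.53 from 285 and 14 counts in the Cpeb4 shRNA and control libraries. At 2.20 CPM in the Cpeb4 shRNA library and 0.191 CPM in the control library, Socs1 passed the filter only through the library where it was high, and so had to differ. Il1rn, the interleukin-1 receptor antagonist gene, was lowest at -3.00 with 1.51 CPM in the Cpeb4 shRNA library and 12.1 CPM in the control library. Vegfa, a growth factor gene, followed at -1.60. Of the 10 targets 5 had a ratio above 0, and the median turned to -0.035 when no filter was set, and to -0.25 when the filter was 10 CPM.

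**Figure D5:**
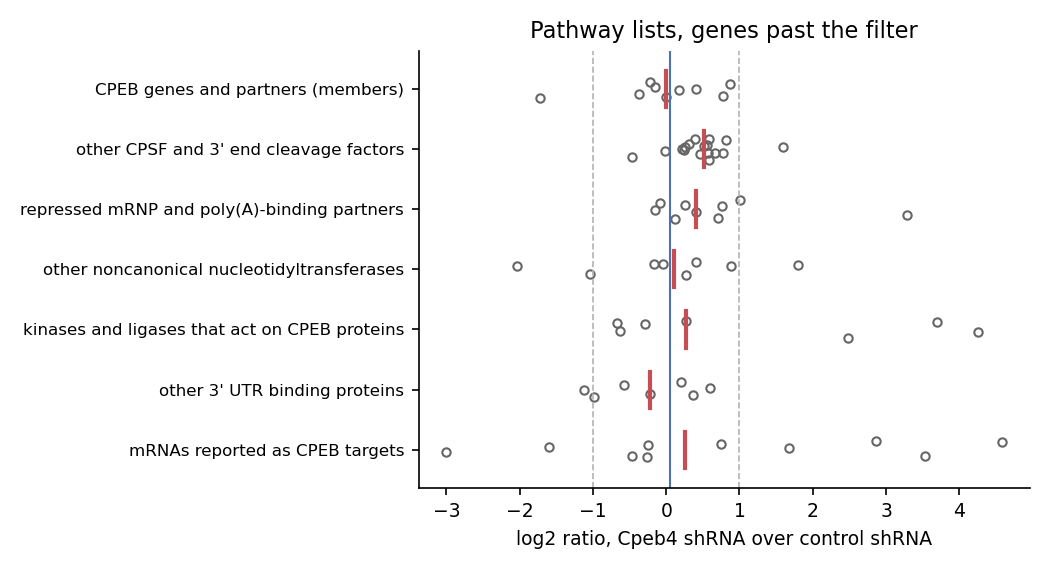
Log2 ratio of Cpeb4 shRNA over control shRNA for each gene past the filter (open circles), by list. Red bars are list medians, the blue line is the median of all genes past the filter (0.051) and dashed lines mark 2-fold. The 3′ end factors have a median of 0.52, with Nudt21 past 2-fold at 1.59, and each of the other lists has at least 1 gene past 2-fold too.

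Genes were also grouped by the CPEs in their longest 3′ UTR. The median log2 ratio was -0.051 for 3882 genes with 0 CPEs, 0.045 for 3405 with 1 or 2, 0.093 for 1944 with 3 to 5 and 0.088 for 1237 with 6 or more. Within UTRs of at least 2000 and under 4000 bases the medians were -0.18, -0.074, 0.042 and 0.040 in the same order, over 226 to 816 genes a class. Within UTRs of at least 1000 and under 2000 bases they were -0.21, -0.032, 0.083 and 0.20. At 4000 bases or more, the class of Cpeb4, they were -0.36 (20 genes), -0.28, 0.072 and 0.078, and under 1000 bases -0.0074, 0.18 and 0.32, with too few genes (11) of 6 or more CPEs for a value. In each length class the median was lowest for genes with 0 CPEs. The quartiles of the genes with 6 or more CPEs ran from -0.35 to 0.54, and those of the genes with 0 CPEs from -0.61 to 0.52. CPEs, UTR length and base composition are linked, and their parts in these medians were not tested. Cpeb4, with 17 CPEs, and Cpeb2, with 24, lay below the median of 0.088 of genes with 6 or more CPEs. So did Cpeb3, with 6 CPEs, and Cpsf2, with 8. The low value of Cpeb4 was that of the gene the shRNA was directed against.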

How the data were processed

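RNA sequencing of 2 RAW264.7 libraries, 1 per group, was analysed. The deposited table held whole-number counts per gene. HISAT2 and the build mm10 are named in the submitters' processing notes. Its version, the counting tool, the annotation, the use of strand and the handling of reads with several alignments are not stated there. Listed were genes with at least 1 count in both libraries, so genes without a count in a library are not analysed here.

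Counts were scaled over the whole table by TMM in edgeR 4.0.16 (R 4.3.3), with factors of 1.08 for the Cpeb4 shRNA and 0.922 for the control library. With 1 library per group no test was run. Log2 ratios carry exact Clopper-Pearson intervals (95%) for the share of the Cpeb4 shRNA count in the sum of both, and CPM carries exact Poisson intervals. These cover counting error only and leave out the variation between cultures. They also treat each read as an independent molecule, which PCR copies of a read are not. A count of 3 equals 0.023 CPM in the Cpeb4 shRNA and 0.041 CPM in the control library. The median interval width was 0.11 for the 9 genes and 0.16 for all genes past the filter.

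Positions, transcripts and UTRs came from GENCODE M21 (GRCm38, the assembly mm10 names), where 18954 of 18987 identifiers were found. UTRs came from protein-coding transcripts with an annotated stop codon, and coding sequences were aligned with Biopython 1.88 in place of proteins. Ratios and intervals were tested on simulated data. The members and gene lists were chosen with earlier results of these data known. Named genes were the members, the 2 highest and 2 lowest of each list and the 3 genes nearest to Cpeb4. Some items that this rule or the sequence search takes are not reported here. Alternatives were other scalings (total count, DESeq2 1.42.0, upper quartile, 20 reference genes), pseudocounts, thinning, filters, fold thresholds, exon lengths and CPE definitions.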

Additional observations from a re-analysis of the deposited data

How the results depend on the processing

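No paired analysis was possible because there was 1 library in each group and nothing was tested. The planned comparison of CPEB proteins was not run, for lack of protein sequences here, and coding bases were compared instead, a choice made after seeing the data. The log2 ratio of Cpeb4 was -1.49 with total-count, -1.76 with upper-quartile and -1.83 with reference-gene scaling, and differed by less than its counting interval with DESeq2 size factors, both pseudocounts and thinning. Members at least 2-fold higher numbered 2 with total-count scaling, beside 2510 of 12094 genes in all. At 1.5-fold 2 members were higher, and at 4-fold 0 were lower. Over all genes, higher and lower genes numbered 3217 and 2930 with no filter, 1025 and 907 with a filter of 10 CPM, 3191 and 2674 at 1.5-fold and 582 and 426 at 4-fold, changes set by the construction of these rules. Of the genes past 2-fold 55.4% were higher under TMM scaling, 71.0% under total-count scaling and 47.3% (1506 higher, 1681 lower) under reference-gene scaling. The 20 reference genes were not stable under TMM scaling. Of these 3 were at least 2-fold higher and 1 was lower, beside 14.6% and 11.8% of all genes.

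Total-count scaling raised every ratio by 0.23 and reference-gene scaling shifted it by -0.11. The list medians were then 0.23 and -0.11 for the members, 0.75 and 0.41 for 3′ end factors, 0.64 and 0.30 for repressed complex partners, 0.34 and 0.00097 for other nucleotidyltransferases, 0.50 and 0.16 for kinases and ligases, 0.011 and -0.33 for other 3′ UTR binders, and 0.48 and 0.14 for reported targets. With no filter the medians were 0.051 for kinases and ligases, -0.096 for other 3′ UTR binders and -0.035 for reported targets. At a mean of 10 CPM, where Cpeb3 drops out, they were 0.089 for the members, 0.33 for nucleotidyltransferases and -0.25 for reported targets. Cpeb4 ranked 4 by level per kb of all exons joined in the Cpeb4 shRNA library. The short core TTTTA occurred 34 times in the 3′ UTR of Cpeb4.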
